A study of Homo sapiens with 27 samples.

Results

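The 40 genes described here are targets of the transcription factor MYC that act in ribosome biogenesis and cell growth. They were chosen by gene name, from a list of 6 box C/D snoRNP and nucleolar core proteins, 10 small subunit processing factors, 12 large subunit assembly factors, 3 translation factors, 6 enzymes of nucleotide, polyamine and energy metabolism and 3 other growth-linked proteins. All 40 were present once among the 58233 genes of each RNA table. The rule uses names and no threshold on a measured value, but the names were chosen with earlier results of these data known.

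The cells were HL-60, a human promyelocytic leukaemia line, and every group held 1 library, so there were no replicates and no test between conditions could be made. Nascent RNA, captured by click chemistry, came from cells given 100 µM DRB, which blocks the kinase that releases RNA polymerase II into elongation, from cells given 0.8 µM actinomycin D (ActD), a DNA intercalator that stops RNA polymerases, from cells given the vehicle DMSO, and from untreated cells. Total RNA came from untreated cells. Chromatin was immunoprecipitated (ChIP) with antibodies to the histone variant H2A.Z or to its acetylated form, acH2A.Z, from cells carrying small interfering RNA labelled siMyc, from cells carrying the control labelled siNTC, and from DRB, ActD and DMSO cells. RNA was immunoprecipitated (RIP) from untreated cells with antibodies to Tip60, an enzyme that acetylates H2A.Z, and to both forms of H2A.Z. The length of each treatment is not given in the sources used here. No RNA table of siMyc or siNTC cells was used here, so the level of MYC RNA after siMyc was not checked.

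MYC binds DNA with its partner MAX at the E-box, CACGTG, and is known for raising the output of genes that build ribosomes. Ribosomes are assembled in the nucleolus, where the precursor ribosomal RNA is cut, folded and modified under the guidance of small nucleolar ribonucleoproteins (snoRNPs) and is then packed into a small and a large subunit. H2A.Z is placed in the nucleosomes next to gene starts, and its acetylated form is known from the starts of active genes. Promyelocytic cells divide fast and depend on a high supply of ribosomes, and HL-60 cells are known to carry extra copies of MYC.

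RefSeq promoter windows (GRCh38.p14, 250 bases before to 50 bases after a listed start) were available for 36 of the 40 genes. NOP58, NOLC1, RRP12 and BOP1 had no entry. CACGTG, which reads the same on both strands, was present in at least 1 listed window of 18 of the 36 genes, a share of 50.0%. It was present for 34 of 101 other ribosome biogenesis genes with a window (33.7%), for 13.0% of 8868 protein-coding genes whose level averaged 1 CPM (library-scaled counts) or more over the RNA libraries, and for 10.9% of all 15842 protein-coding genes with a window. With the first listed window alone the counts were 14 of the 36 genes, against 10.6% of the 8868 genes. The E-box lay close to the start: 14 of the 18 genes had it beginning within 50 bases of a listed start, and its median position was -1 with the start at 0. Of the 22 places found, 68.2% began within 50 bases of the start, against 63.4% (median position -15) in the other ribosome biogenesis genes and 38.8% (median -75) in the 8868 genes. EIF4E, IMP4, LDHA and ODC1 had it at 2 places of 1 window. The core of the ETS motif, CCGGAA on either strand, was present for 21 of the 36 genes (58.3%), against 36.6% of the 8868 genes. The other ribosome biogenesis genes were close to the group, with 57 of 101 (56.4%). The GC box GGGCGG was present for 26 of the 36 genes (72.2%) and 77.1% of the 8868 genes, and the TATA box TATAAA for 1 gene (2.78%) and 7.96%. The 40 genes were listed as MYC targets and MYC binds the E-box, so its share and position among them are not independent of that choice. These matches are letters in a window, and binding of MYC was not measured.

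Promoter windows of 8 genes are shown because 6 of them hold the E-box at the members with the highest acH2A.Z signal within 1 kb of the start in siNTC cells, and because NME2 and NOP56 are the members with the highest such signal and no E-box in any listed window. Each runs 5′ to 3′ along the gene, in lower case, with CACGTG in capitals. ODC1 (chr2:10447963-10448262, minus strand) encodes ornithine decarboxylase and has the E-box at positions -29 and 5. GNL3 (chr3:52685782-52686081, plus strand) encodes nucleostemin and has it at position 6. MRTO4 (chr1:19251555-19251854, plus strand) has it at position 14. WDR43 (chr2:28894417-28894716, plus strand) has it at position 3. RCL1 (chr9:4792694-4792993, plus strand) has it at position 4. SRM (chr1:11059969-11060268, minus strand) encodes spermidine synthase and has it at position -199. NME2 lies at chr17:51165286-51165585, plus strand and NOP56 at chr20:2652382-2652681, plus strand. The siNTC acH2A.Z peak of NME2 ran from 287 to 2363 bases after its first listed start, so it lay outside the window shown.
ODC1: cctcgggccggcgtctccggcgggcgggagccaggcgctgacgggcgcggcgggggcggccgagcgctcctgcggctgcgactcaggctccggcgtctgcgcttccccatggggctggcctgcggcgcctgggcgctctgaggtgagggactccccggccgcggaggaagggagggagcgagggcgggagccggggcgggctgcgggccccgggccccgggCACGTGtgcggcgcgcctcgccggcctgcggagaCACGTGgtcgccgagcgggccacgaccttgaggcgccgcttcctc
GNL3: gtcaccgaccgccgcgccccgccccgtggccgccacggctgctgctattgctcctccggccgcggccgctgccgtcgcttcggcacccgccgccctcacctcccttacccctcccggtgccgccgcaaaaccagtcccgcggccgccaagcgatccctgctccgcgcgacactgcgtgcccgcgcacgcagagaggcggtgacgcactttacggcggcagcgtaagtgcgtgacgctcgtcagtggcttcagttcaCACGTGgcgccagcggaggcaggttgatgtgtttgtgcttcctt
MRTO4: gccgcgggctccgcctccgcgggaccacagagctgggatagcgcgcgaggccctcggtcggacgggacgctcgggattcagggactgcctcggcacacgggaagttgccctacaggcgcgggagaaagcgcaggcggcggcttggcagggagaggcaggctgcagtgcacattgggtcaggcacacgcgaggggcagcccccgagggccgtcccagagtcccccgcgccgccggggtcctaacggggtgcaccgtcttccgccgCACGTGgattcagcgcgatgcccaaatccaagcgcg
WDR43: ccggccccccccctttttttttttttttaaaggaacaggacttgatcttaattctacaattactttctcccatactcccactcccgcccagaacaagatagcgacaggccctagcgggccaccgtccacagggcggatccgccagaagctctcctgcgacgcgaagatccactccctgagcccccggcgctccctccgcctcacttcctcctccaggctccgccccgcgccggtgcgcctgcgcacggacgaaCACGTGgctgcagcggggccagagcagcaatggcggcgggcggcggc
RCL1: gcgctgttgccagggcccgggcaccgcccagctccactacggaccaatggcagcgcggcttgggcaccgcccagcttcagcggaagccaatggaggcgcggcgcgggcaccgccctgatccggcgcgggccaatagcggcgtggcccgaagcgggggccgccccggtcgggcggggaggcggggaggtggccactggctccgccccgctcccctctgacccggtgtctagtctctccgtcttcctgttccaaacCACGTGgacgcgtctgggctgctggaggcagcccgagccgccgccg
SRM: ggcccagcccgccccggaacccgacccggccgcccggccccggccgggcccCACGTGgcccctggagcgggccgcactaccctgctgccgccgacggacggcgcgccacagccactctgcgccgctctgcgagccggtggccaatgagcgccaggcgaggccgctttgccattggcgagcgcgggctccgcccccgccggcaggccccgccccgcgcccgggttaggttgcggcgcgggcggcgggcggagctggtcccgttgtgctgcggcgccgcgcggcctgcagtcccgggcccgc
NME2: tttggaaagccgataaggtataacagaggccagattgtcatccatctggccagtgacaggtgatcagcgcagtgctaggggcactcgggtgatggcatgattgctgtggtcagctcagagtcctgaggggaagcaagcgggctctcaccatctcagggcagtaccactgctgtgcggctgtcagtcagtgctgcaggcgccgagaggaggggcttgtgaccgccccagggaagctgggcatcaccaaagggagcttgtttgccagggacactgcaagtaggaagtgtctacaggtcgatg
NOP56: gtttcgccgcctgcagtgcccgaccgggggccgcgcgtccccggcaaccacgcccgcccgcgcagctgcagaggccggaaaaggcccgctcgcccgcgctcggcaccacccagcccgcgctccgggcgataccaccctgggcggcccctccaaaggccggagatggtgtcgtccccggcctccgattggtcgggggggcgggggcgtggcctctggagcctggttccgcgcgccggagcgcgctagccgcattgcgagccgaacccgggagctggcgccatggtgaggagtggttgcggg

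The RNA libraries differed in make-up before any of the 40 genes was considered. The deposited tables summed to 14339264 expected counts under DRB, 12600067 under ActD, 14426368 under DMSO, 25167597 in untreated nascent and 12679342 in total RNA. Mitochondrially encoded genes took 66.5%, 56.9% and 45.9% of the counts under DRB, ActD and DMSO, and 0.560% and 0.649% in untreated nascent and total RNA, so CPM was taken over the remaining genes. RNA polymerase III and ribosomal RNA genes then took 7.09%, 7.98% and 3.26% under DRB, ActD and DMSO, but 55.9% of untreated nascent and 46.1% of total RNA. Of 9 promyelocyte genes, 8 stood at 1 CPM or more in every library, while ELANE was at 0 in 4 of the 5 libraries. MPO was the highest of the 9 in every library but DMSO, where MYB was. Of 8 erythroid and 8 epithelial or fibroblast genes, at most 2 of either list reached 1 CPM in any library. Of 9 B and T cell genes PAX5 stood highest, with 14.6 CPM under DRB, 0.184 under ActD and 17.3 under DMSO. In bulk libraries, a change in the share of cells that express a gene and a change in the RNA per cell cannot be told apart.

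Members of the nucleolar core led the group in abundance, but not all of them did. Per transcript length, NPM1, the nucleolar chaperone nucleophosmin, ranked first of the 40 genes in all 5 libraries, with 2441 TPM (length-scaled units, rescaled without mitochondrial genes) under DRB, 1493 under ActD, 2468 under DMSO, 149 in untreated nascent and 159 in total RNA. NCL, the nucleolar RNA-binding protein nucleolin, ranked between 2 and 6, and NOP56, a core protein of the box C/D snoRNP, ranked between 2 and 4. The translation factor EIF4A1 ranked between 3 and 5, while the core protein NOP58 ranked between 11 and 19. UTP20, a very large factor of the small subunit processome, ranked last in 4 of the 5 libraries and 37 under DRB. In CPM, the 40 genes summed to 17773 under DRB, 13391 under ActD, 17574 under DMSO, 3561 in untreated nascent and 3616 in total RNA. NCL alone held 8389, 5363 and 6924 CPM of the sums under DRB, ActD and DMSO, the largest part held by any member. In untreated nascent and total RNA it had 352 and 253 CPM, below NPM1 with 987 and 850 CPM. One library of each kind decides every one of these values.

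**Figure D1:**
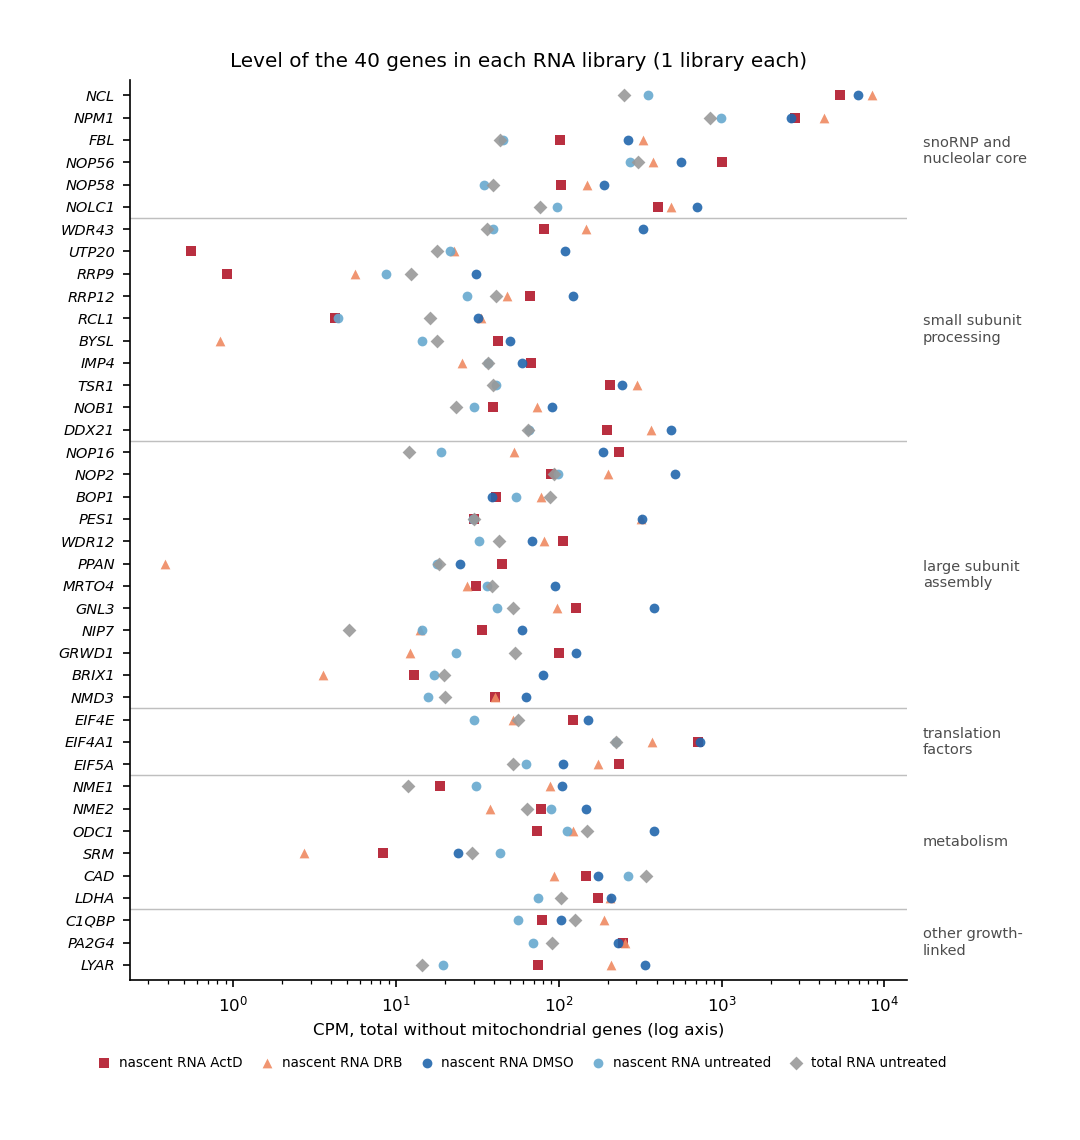
Level of each of the 40 genes in CPM (log axis, total without mitochondrial genes) in the ActD, DRB, DMSO and untreated nascent RNA libraries and the total RNA library, grouped by role, 1 point per library. NCL and NPM1 stand far to the right, and UTP20 and RRP9 under ActD and BYSL and PPAN under DRB fall below 1 CPM.

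DRB left none of the 40 genes 2-fold higher than DMSO and 18 of them 2-fold or more lower, on the log2 scale of CPM + 1. Over the 12919 genes that averaged 1 CPM or more and held 20 counts or more in the pair of libraries, called kept here, 15.6% were that much higher and 47.0% that much lower. The median log2 ratio was -0.79 for the 40 genes and -0.83 for all genes kept, so the group as a whole sat at the background. ActD left 1 gene 2-fold higher and 16 that much lower, against 19.0% and 50.7% of 12788 genes kept, and the medians were -0.80 and -1.05. All 40 genes passed the filter in both comparisons. The share lower in each comparison was thus near the background and is no result about the group, while fewer genes were higher than the background share, with 0 under DRB and 1 under ActD. Relative to the median gene, 8 genes were 2-fold higher and 10 lower under DRB, against 29.2% and 34.5% of genes kept, and 9 were higher and 9 lower under ActD, against 33.6% and 34.6%. Directions also depend on the unit: in the deposited TPM, rescaled without mitochondrial genes, 8 of the 40 genes had the opposite sign under DRB and 8 under ActD. The comparisons share the DMSO library, so what follows gives DRB, ActD and DMSO values side by side.

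Among the 6 snoRNP and nucleolar core genes, none was 2-fold lower under DRB, and FBL alone was under ActD. FBL, the methyltransferase fibrillarin, had 330 CPM under DRB, 102 under ActD and 265 under DMSO. NPM1 had 4278, 2827 and 2678 CPM in the same order, a log2 ratio of 0.68 under DRB with a 95% counting interval of 0.65 to 0.70. That ratio was -0.016 in rescaled TPM and -0.013 with mitochondrial genes in the total, so it depends on the scale. NOP56 had 380, 1013 and 562 CPM, and so differed in direction between the inhibitors, with log2 ratios of -0.56 and 0.85. NOP58, its partner in the snoRNP, had 148, 103 and 191 CPM, and NOLC1, a snoRNP chaperone, had 488, 407 and 707 CPM. Both were within 2-fold of DMSO under each inhibitor.

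The small subunit factors split by gene. Of the 10, 6 were 2-fold lower under DRB and 6 under ActD. BYSL, an essential factor for 18S ribosomal RNA maturation, had 4 counts under DRB, 231 under ActD and 393 under DMSO, which are 0.832, 42.5 and 50.4 CPM. Its log2 ratio under DRB was -4.81, the lowest of the 40 genes, and the interval of the ratio of counts ran from -7.80 to -4.55. UTP20 showed the opposite order, with 109 counts under DRB, 3 under ActD and 858 under DMSO. Its 0.552 CPM under ActD, against 110 CPM under DMSO, gave a log2 ratio of -6.16 (interval -9.92 to -6.09), again the lowest of the 40 in CPM. In rescaled TPM it was -3.82, and RCL1 (-4.20), RRP9 (-3.97) and WDR43 (-3.88) were lower. RRP9, a U3 snoRNP protein, was low under both, with 27, 5 and 243 counts. WDR43, of the complex that binds the nascent precursor RNA, had 147, 81.3 and 330 CPM. RCL1, known from yeast as a factor for cutting the 18S precursor, had 33.1 CPM under DRB, 4.23 under ActD and 31.8 under DMSO. RRP12 had 47.8, 66.96 and 122 CPM, and IMP4, another U3 snoRNP protein, had 25.4, 67.1 and 59.7 CPM. TSR1 (304, 206 and 243 CPM), NOB1, the nuclease that makes the mature 18S end (73.8, 39.6 and 91.5 CPM), and the helicase DDX21 (368, 198 and 488 CPM) stayed within 2-fold under DRB.

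Of the 12 large subunit factors, 8 were 2-fold lower under DRB and 5 under ActD. PPAN had 1.83 expected counts under DRB, 244 under ActD and 193 under DMSO. Its DRB ratio of -4.22 (interval -8.95 to -4.02) therefore rests on fewer than 3 counts. BRIX1 had 17, 70 and 628 counts, with log2 ratios of -4.17 under DRB and -2.55 under ActD. GRWD1, a histone-binding protein of the nucleolus, had 12.3 CPM under DRB, 100 under ActD and 128 under DMSO. PES1, BOP1 and WDR12 form a single complex, PeBoW. PES1 had 318 CPM under DRB, 30.4 under ActD and 323 under DMSO, whereas BOP1 had 77.4, 41.2 and 39.1 CPM and WDR12 had 81.3, 106 and 68.5 CPM. WDR12 turns with the unit, with log2 ratios of 0.25 under DRB and 0.62 under ActD in CPM and -2.84 under both in rescaled TPM. The ratios of PES1 under ActD were -3.37 in CPM and -3.46 in rescaled TPM. BOP1 was the highest of the 40 genes under DRB, at a log2 ratio of 0.97 (interval 0.76 to 1.21). NOP2, a ribosomal RNA methyltransferase, had 201, 89.6 and 516 CPM, GNL3 had 97.4, 127 and 383 CPM, and MRTO4 had 27.5, 30.9 and 95.1 CPM. NOP16 had 52.8, 233 and 187 CPM, NIP7 had 14.1, 33.8 and 59.6 CPM, and NMD3, the export adaptor of the large subunit, had 40.6, 40.7 and 63.0 CPM.

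Among the growth genes, EIF5A stood apart. This translation factor had 174 CPM under DRB, 235 under ActD and 107 under DMSO, and its log2 ratio of 1.13 under ActD (interval 1.01 to 1.27) made it the sole member 2-fold higher. In rescaled TPM the ActD ratio of EIF5A was -0.07, so the direction depends on the unit. BOP1 was then the sole member 2-fold higher, at log2 ratios of 1.01 under ActD and 1.23 under DRB. EIF4E, the cap-binding protein, had 52.0, 122 and 152 CPM, and EIF4A1, its helicase partner, had 373, 717 and 742 CPM. The polyamine enzymes were low under both inhibitors, with ODC1 at 123, 73.2 and 387 CPM and SRM at 2.70, 8.28 and 24.1 CPM. NME1 and NME2 are neighbouring nucleoside diphosphate kinase genes with a read-through gene between them in the tables. NME1 had 88.9, 18.8 and 105 CPM, NME2 had 37.9, 78.2 and 148 CPM, and the read-through NME1-NME2 had 36.7, 0 and 16.4 CPM. Reads of these 3 rows can be split among them by the counting, so their single values are uncertain. CAD, the first enzyme of pyrimidine synthesis, had 93.6, 147 and 175 CPM, and LDHA, lactate dehydrogenase, had 205, 174 and 211 CPM. C1QBP had 189, 78.9 and 103 CPM, PA2G4 had 255, 250 and 231 CPM, and the nucleolar protein LYAR had 210, 74.5 and 337 CPM.

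**Figure D2:**
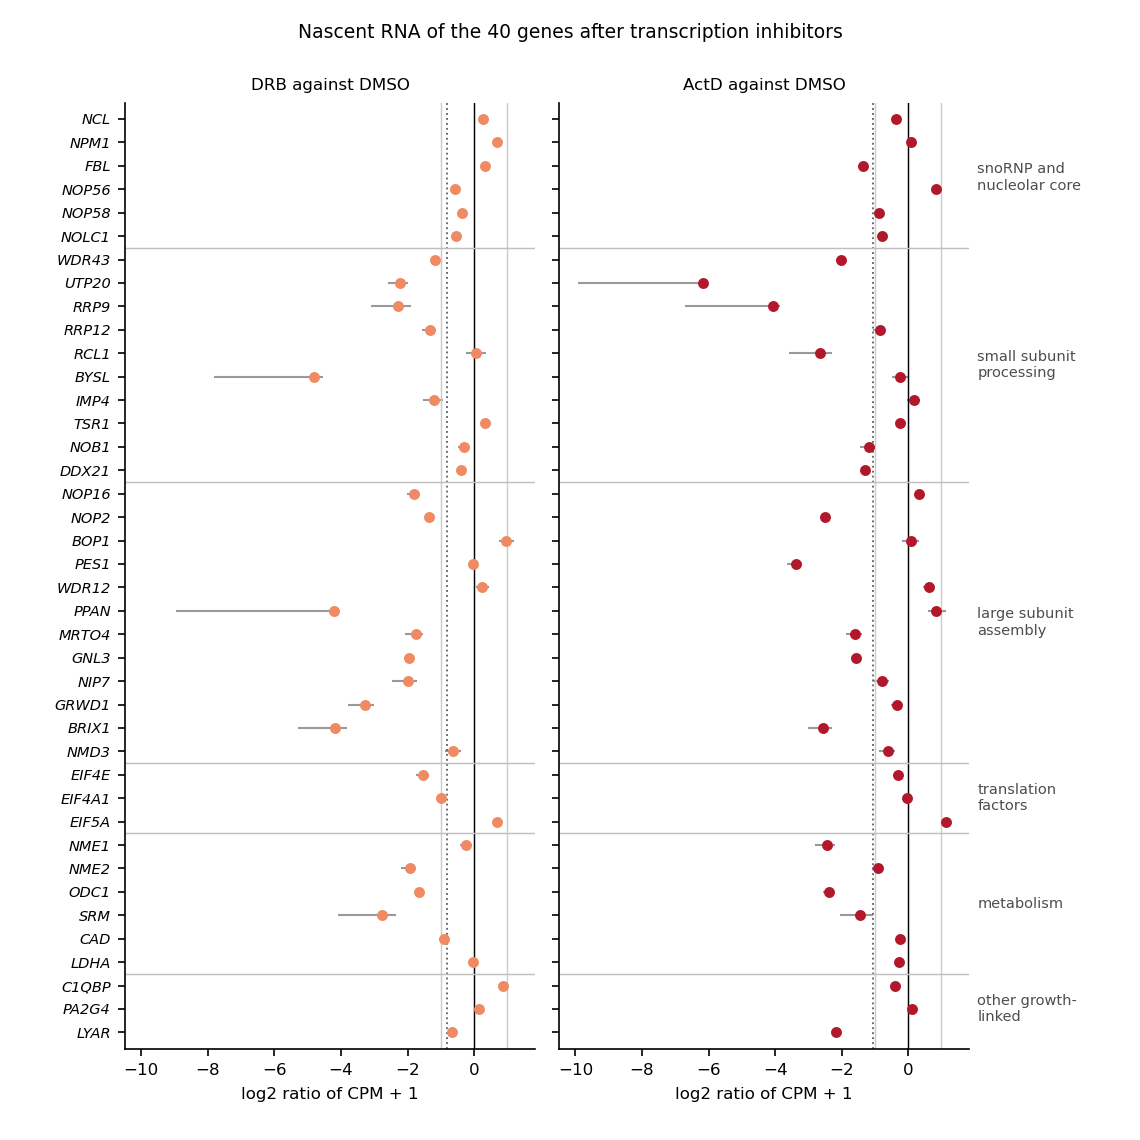
Log2 ratio of CPM + 1 of each gene for DRB against DMSO (left) and ActD against DMSO (right), grouped by role. Points are the ratios, grey lines are 95% counting intervals of the ratio without the pseudocount, the dotted line is the median of all genes kept, and the light lines mark 2-fold. BYSL, PPAN and BRIX1 lie lowest under DRB, and UTP20, RRP9 and PES1 under ActD.

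Set directly against DRB, ActD held 11 genes 2-fold higher (34.2% of 10859 genes kept) and 9 lower (36.3%), with medians of -0.14 for the 40 genes and -0.09 for all. The highest were PPAN at a log2 ratio of 5.05 (interval 4.89 to 9.81), BYSL at 4.57, GRWD1 at 2.93, NOP16 at 2.12, BRIX1 at 1.61 and NOP56 at 1.41. The lowest were UTP20 at -3.93, PES1 at -3.35, RCL1 at -2.70, NME1 at -2.19, RRP9 at -1.79 and FBL at -1.68. PPAN has a read-through partner as well. PPAN-P2RY11 had 1.91 CPM under DRB, 0 under ActD and 48.0 under DMSO, so PPAN and its read-through together had 2.29, 44.9 and 72.8 CPM. As a sum the pair was lower under ActD than under DMSO, although the PPAN row alone was higher. MYC itself, which is not one of the 40, had 3.33 CPM under DRB, 80.8 under ActD and 283 under DMSO.

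The 36 genes with a promoter window were then divided by the E-box. Under ActD, 14 of the 18 genes with CACGTG and 2 of the 18 without it were 2-fold lower than DMSO, with median log2 ratios of -1.80 and -0.24. Under DRB the counts were 11 of 18 and 6 of 18, with medians of -1.28 and -0.59. The same division of protein-coding genes outside the group gave no such contrast. Of 1066 kept genes with CACGTG, 49.2% were 2-fold lower under ActD, and of 7183 without it, 50.0% were. Under DRB the shares were 42.7% and 46.3%. With the first listed window alone the ActD counts were 10 of 14 and 6 of 22, and with rescaled TPM they were 15 of 18 and 9 of 18. Both contrasts share the DMSO library. Against untreated nascent RNA, 16 of 18 genes with CACGTG and 13 of 18 without it were 2-fold higher in the DMSO library, with medians of 2.30 and 1.65. Set against DRB, ActD held 8 of 18 and 1 of 18 genes 2-fold lower and 4 and 7 higher, with medians of -0.87 and 0.54. The part of the DMSO library in the contrast was not tested. The division was made after the ratios were known and compares single libraries, so no test is given. The 101 other ribosome biogenesis genes with a window were not divided in this way. Whether the contrast is particular to the group or shared by ribosome biogenesis genes was therefore not tested.

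**Figure D3:**
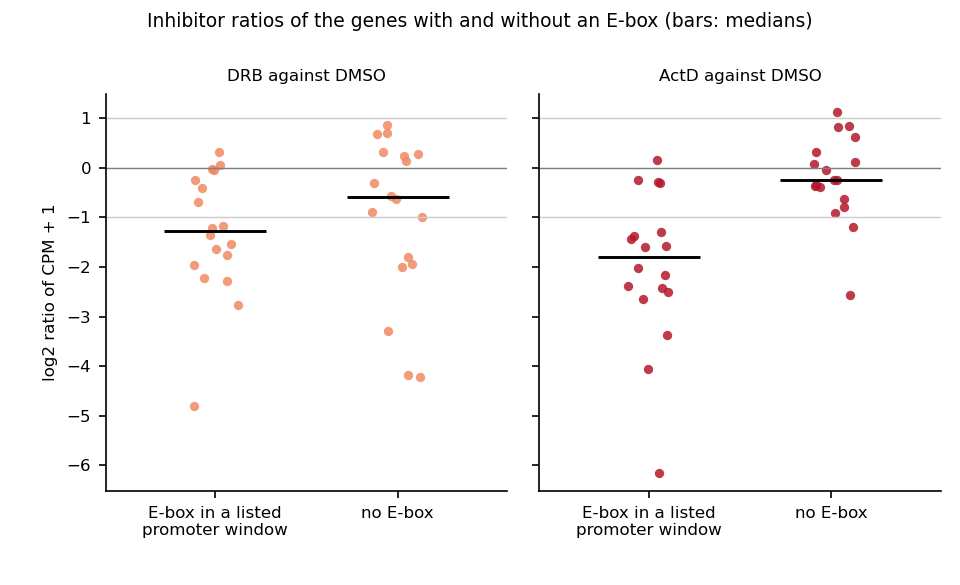
Log2 ratio of CPM + 1 for DRB against DMSO (left) and ActD against DMSO (right), for the 18 genes with CACGTG in a listed promoter window and the 18 without it, 1 point per gene and bars at the medians. The medians under ActD are -1.80 and -0.24, and those under DRB -1.28 and -0.59, with both sets overlapping.

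A list of 118 other ribosome biogenesis genes gives the setting. Under DRB, 2 of its 115 kept genes were 2-fold higher and 53 lower, at a median of -0.81, and under ActD 8 stood higher and 53 lower, at a median of -0.86. The highest under DRB were TEX10, with 174 CPM against 38.2 under DMSO, and NOL12, with 93.6 against 30.9 CPM. URB2 was among the lowest under both inhibitors, with 0.832 CPM under DRB, 1.10 under ActD and 81.0 under DMSO. EXOSC5, an exosome subunit, was the highest of the list under ActD, with 156 counts against 4 under DMSO (interval of the log2 ratio 4.42 to 7.70). These values are close to those of the 40 genes in count and median.

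The vehicle library was itself unlike the untreated one. In DMSO nascent RNA 32 of the 40 genes were 2-fold higher than in untreated nascent RNA and none was lower, against 46.2% and 14.7% of 14252 genes kept. The median log2 ratio was 1.85 for the 40 genes and 0.87 for all. All 6 snoRNP and nucleolar core genes, 9 of 10 small subunit factors and 10 of 12 large subunit factors were higher, but 3 of 6 metabolic enzymes. NCL had 6924 CPM under DMSO and 352 in untreated cells, a log2 ratio of 4.29, and LYAR had 337 and 19.5 CPM, a ratio of 4.05. PES1, NOP16, GNL3 and WDR43 followed at 3.40, 3.25, 3.16 and 3.03. At the other end, SRM had 24.1 and 43.6 CPM (-0.83), CAD had 175 and 265 CPM (-0.60), BOP1 was at -0.48, PPAN at 0.45, IMP4 at 0.70 and NME2 at 0.71. In the list of other ribosome biogenesis genes, GAR1 (3.87), NIFK (3.75) and ZNHIT6 (3.60) were highest. The lowest there were EXOSC5 (-2.27), EXOSC4 (-1.92) and TBL3 (-1.69). Whether the difference is particular to the 40 genes was not tested. The RNA polymerase III and mitochondrial shares given above differ between these libraries, and their part in the difference was not tested. Without those genes in the total 18 of the 40 genes were higher and 3 lower. No background share is given for that setting.

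Untreated nascent and total RNA were alike for these genes. In nascent RNA 2 genes were 2-fold higher and 3 lower, against 9.49% and 17.8% of 13968 genes kept, and the medians were -0.03 and -0.34. NME1 had 31.2 CPM in nascent and 11.8 in total RNA, and NIP7, a factor for large subunit assembly, had 14.4 and 5.16 CPM, with log2 ratios of 1.33 and 1.32. NOP16, SRM, NME2 and NCL followed at 0.61, 0.56, 0.48 and 0.47. RCL1 was the lowest, with 4.40 and 16.2 CPM (-1.67), followed by GRWD1 (-1.17), C1QBP (-1.15), EIF4E (-0.88), BOP1 (-0.68) and RRP12 (-0.56). The other 118 ribosome biogenesis genes had a median of -0.22, with 5 higher and 7 lower.

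acH2A.Z was lower in siMyc cells at most of these genes, as it was at most expressed genes. A deposited acH2A.Z peak lay over or within 1 kb of 23 of the 40 genes in siMyc cells and of 38 in siNTC cells, against 56.9% and 90.4% of 10680 protein-coding genes at 1 CPM or more. Both lists had a peak at 22 genes (55.5% in the background), and the siNTC list alone had one at 16, a share of 40% against a background of 34.8%. The siMyc list alone had one at RRP12, against a background of 1.42%, and EIF4A1 had none in either (8.21%). The genes without a peak in siMyc cells were BOP1, BRIX1, GRWD1, MRTO4, NIP7 and NOP2 of the large subunit factors, NOB1, RCL1 and TSR1 of the small subunit factors, NOLC1 and NOP56 of the nucleolar core, the enzymes NME1, NME2 and SRM, and LYAR and PA2G4. Counting a gene without a peak as 0 tags, 36 of the 40 genes had fewer tags in siMyc cells and 3 had more, against 84.4% and 7.39% of the protein-coding genes.

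The size of the difference varied by gene. Tags in peaks, assumed to be per 10000000 tags, summed over the 40 genes to 860 in siMyc cells, over 27.1 kb of peaks, and to 10652 in siNTC cells, over 68.9 kb. Per kb of peak that is 31.7 in siMyc cells and 155 in siNTC cells. ODC1 had 20.8 tags in siMyc cells, against 1214 in siNTC cells, the highest of the 40 there, a log2 ratio of -5.87. GNL3 had 13 and 655 tags (-5.65), NCL 26.8 and 542 (-4.34), RRP9 9.46 and 190 (-4.33) and C1QBP 13.7 and 235 (-4.10). The peaks of PES1 (22.05 and 21.1 tags), NOP58 (95.5 and 94.6), NOP16 (71.4 and 80.3), NPM1 (27.2 and 32.7) and WDR12 (74.8 and 115) had ratios of 0.06, 0.01, -0.17, -0.27 and -0.62. Over the 22 genes with a peak in both lists the median log2 ratio was -2.23, and over 5930 protein-coding genes with a peak in both it was -3.21, so the ratio was no lower at these genes than elsewhere. Per kb of peak the medians were -1.67 and -2.24. Another coding gene's start lies in or near FBL, RRP9, BYSL, IMP4, NOP16, WDR12, PPAN, MRTO4, GNL3, NIP7, GRWD1, BRIX1, EIF4A1, NME1 and LYAR. Tags there can belong to the neighbour, and this was not tested. Peaks held 3.55% of 10000000 tags in the whole siMyc list and 39.9% in the siNTC list, and the deposited siMyc list has its control scaled to the immunoprecipitation while the siNTC list does not. Their part in the difference was not tested.

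**Figure D4:**
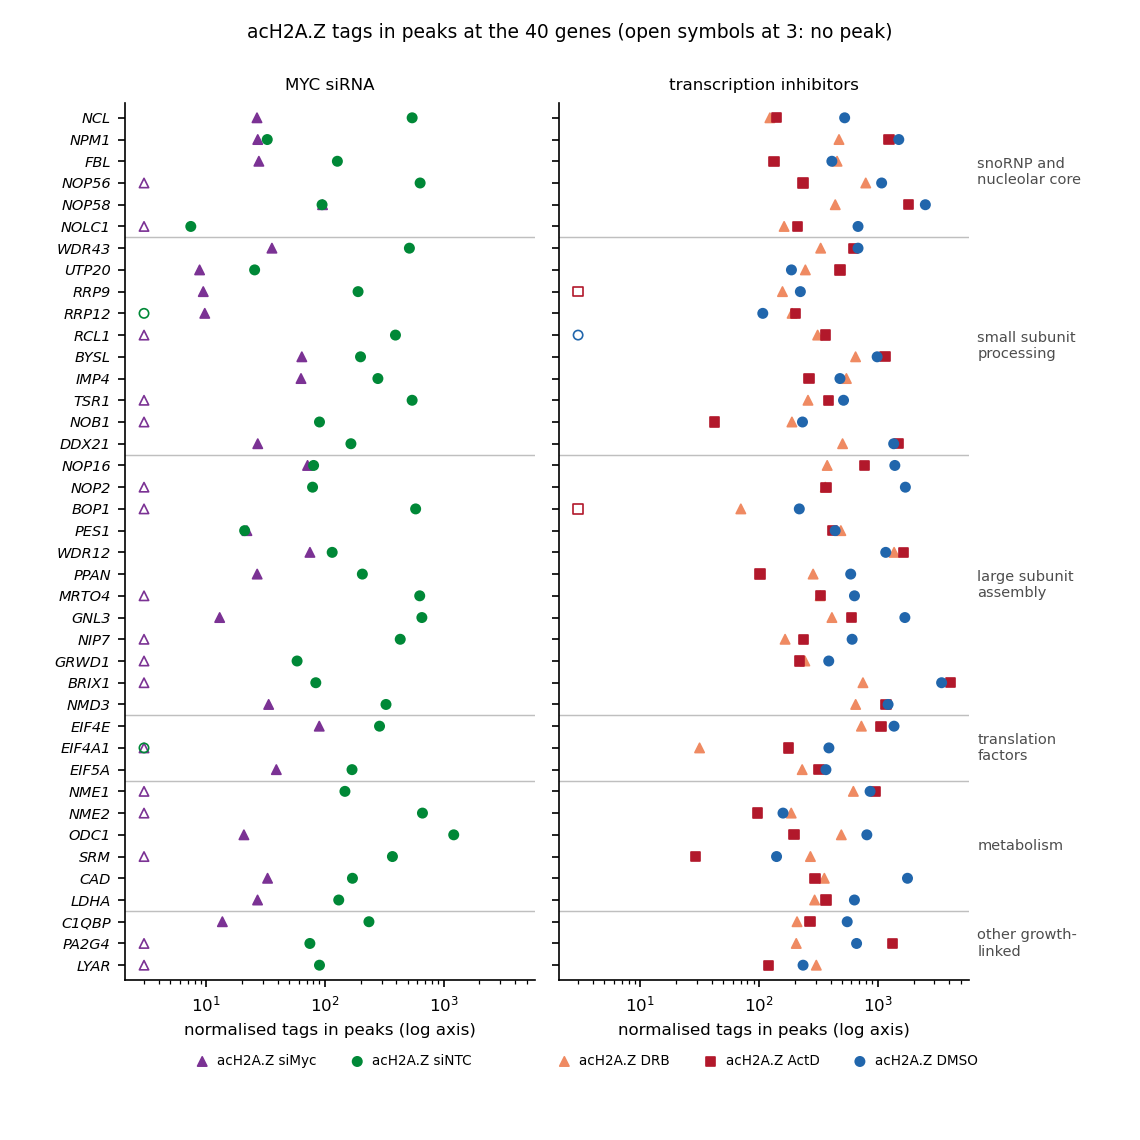
Normalised acH2A.Z tags in peaks over or within 1 kb of each gene (log axis), in siMyc and siNTC cells (left) and in DRB, ActD and DMSO cells (right), grouped by role, 1 library each. Open symbols mark genes with no deposited peak. The siMyc points lie left of the siNTC points for 36 of the 40 genes, and DMSO lies right of DRB for 30 and of ActD for 31.

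The acH2A.Z peaks of siMyc cells mostly sat upstream of the start. A peak covered the first listed start of 9 of the 36 genes in siMyc cells and of 33 in siNTC cells, against 17.3% and 79.9% of 8868 protein-coding genes. Among genes with a peak within 5 kb, the strongest peak was centred at a median of -599 bases in siMyc cells, with 21 of 22 genes upstream, and at -123.5 bases in siNTC cells, with 27 of 35 upstream. In the protein-coding background 68.3% and 50.5% of the strongest peaks were centred upstream. The median length of these peaks was 919.5 bases in siMyc cells and 1734 bases in siNTC cells. Peaks covered the start of 34 genes under DRB, 32 under ActD and 34 under DMSO, against 83.2%, 61.6% and 74.9% of the background. The median centre was -329 bases under DRB, 123 under ActD and 127 under DMSO, with 28 of 36, 15 of 35 and 12 of 35 genes upstream. In the background 59.0%, 40.04% and 37.4% were upstream. Under DRB and in siMyc cells the strongest acH2A.Z peak thus lay further upstream than in their controls, at these genes and in the background. Some of these peaks can belong to the start of a neighbouring gene, whose part in the positions was not tested.

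**Figure D5:**
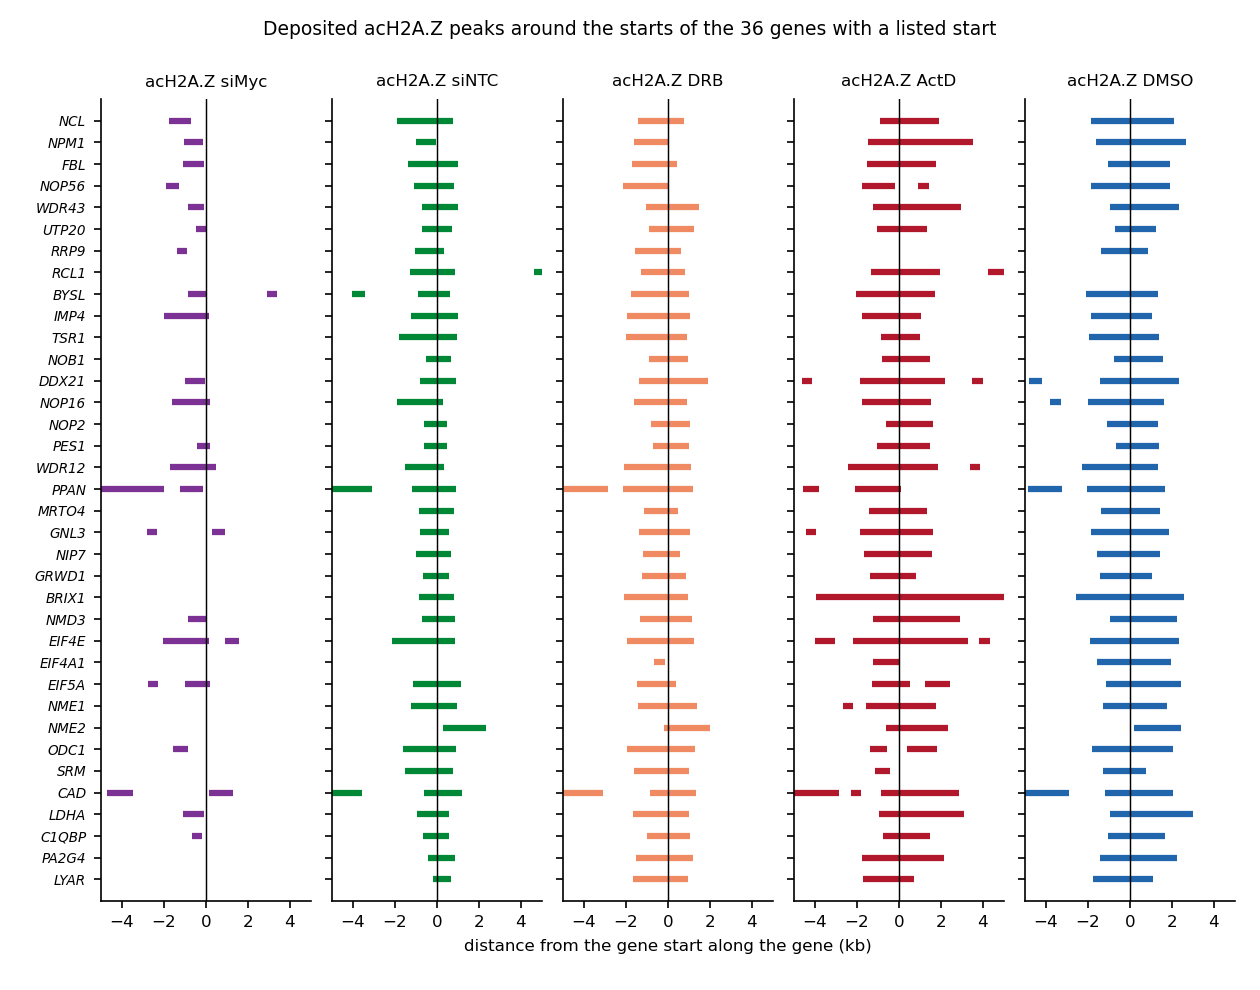
Deposited acH2A.Z peaks within 5 kb of the first listed start of 36 genes, drawn by distance along the gene in kb with the start at 0, in siMyc, siNTC, DRB, ActD and DMSO cells. In siMyc cells 9 genes have a peak over the start, against 33 in siNTC cells, and 21 of 22 strongest peaks are centred upstream.

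The H2A.Z antibody gave fewer peaks at these genes than the acH2A.Z antibody. In siMyc cells 9 genes had one and in siNTC cells 8, against 30.1% and 19.8% of the protein-coding genes. NOP58 and PPAN had one in both lists (12.7%). BOP1, EIF5A, FBL, GNL3, LDHA, NMD3 and NME1 had one in siMyc cells alone, a share of 17.5% against a background of 17.4%. BRIX1, CAD, EIF4E, ODC1, SRM and TSR1 had one in siNTC cells alone, 15% against 7.05%. NOP58 had 10.7 tags in siMyc and 11.6 in siNTC cells, and PPAN 10.8 and 13.9. BOP1 (165 tags) and GNL3 (118 tags) stood highest in siMyc cells, and TSR1 (106) and ODC1 (102) in siNTC cells. GNL3 thus had an H2A.Z peak in siMyc cells alone and one of the lowest acH2A.Z ratios, while ODC1, with the lowest ratio, had its H2A.Z peak in siNTC cells alone. With peaks of at least 8-fold over control alone, none of the 7 and 1 of the 6 were left in 1 list only. No background share is given for that setting.

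acH2A.Z peaks were still listed at nearly all of these genes under the transcription inhibitors. All 40 had a peak under DRB, 38 under ActD and 39 under DMSO, against 93.7%, 84.4% and 88.1% of the protein-coding genes. Both DRB and DMSO lists had one at 39 genes (87.4%), and both ActD and DMSO lists at 37 (81.1%). RCL1 had a peak under DRB and under ActD and none under DMSO, against backgrounds of 6.39% and 3.27%. BOP1 and RRP9 had one under DMSO and none under ActD (6.99%), and no gene had one under DMSO and none under DRB (0.768%). Tags over the 40 genes summed to 15256 under DRB over 97.95 kb, 23942 under ActD over 153 kb and 32941 under DMSO over 129 kb, or 156, 157 and 255 per kb. The median log2 ratio of tags against DMSO was -0.96 under DRB over 39 genes and -0.82 under ActD over 37, beside -0.70 and -0.63 for protein-coding genes with a peak in both lists. With no peak as 0, 30 genes had fewer tags under DRB than under DMSO and 10 had more, against 61.2% and 33.3% of the protein-coding genes. Under ActD 31 had fewer and 9 more, against 67.1% and 24.3%.

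Single genes departed from that. Under DRB the highest ratios were SRM at 0.95 (271 and 141 tags in DRB and DMSO cells), RRP12 at 0.82, UTP20 at 0.39, LYAR at 0.37 and WDR12 at 0.23. The lowest were EIF4A1 at -3.62 (31.6 and 388 tags), NOP58 at -2.52, CAD at -2.33, NOP2 at -2.24 and BRIX1 at -2.20. Under ActD the highest were UTP20 at 1.36 (481 and 188 tags in ActD and DMSO cells), PA2G4 at 1.01, RRP12 at 0.91, WDR12 at 0.49 and BRIX1 at 0.25. BRIX1 held the most tags of the 40 under ActD, 4084 over 12.1 kb, against 3445 over 5.16 kb under DMSO, so per kb it was lower under ActD (338 and 668). The lowest were CAD at -2.59 (295 and 1778 tags), PPAN at -2.53, NOB1 at -2.46, SRM at -2.27 and NOP2 at -2.22. UTP20 had the lowest CPM ratio of the 40 under ActD and the highest acH2A.Z ratio. Of the 16 genes 2-fold lower in nascent RNA under ActD, 11 had fewer acH2A.Z tags, and of the other 24 genes 20 did, beside 65.9% and 72.4% of protein-coding genes so divided. Under DRB the counts were 13 of 18 and 17 of 22, beside 65.1% and 62.2%.

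The scale of the lists implies 5356780 tags under DRB, 19744100 under ActD and 3515490 under DMSO, so the lists differ in depth as well as in treatment, and its part in the counts was not tested. When the highest-scoring peaks were taken in equal number from each list, 12 of the 40 genes had a peak under DMSO and none under DRB, and 10 under DMSO and none under ActD. No background share is given for that setting, so whether these counts differ from the background was not tested. H2A.Z peaks were listed at 14 of the 40 genes under DRB, 7 under ActD and 9 under DMSO, against 24.1%, 21.7% and 11.5% of protein-coding genes. The share of the 40 genes was thus above the background under DRB and DMSO and near it under ActD. H2A.Z peaks covered the first listed start of 30.6%, 8.33% and 13.9% of 36 genes under DRB, ActD and DMSO. The shares of the 8868 protein-coding genes were 13.2%, 3.59% and 6.72%. The part of gene span in the shares over whole genes was not tested. IMP4, NCL, NOP2, NOP58, NPM1 and WDR43 had an H2A.Z peak over or within 1 kb under both DRB and DMSO (6.86%), with a median log2 ratio of -0.26. BRIX1, CAD and WDR43 had one under both ActD and DMSO (4.68%). Where both antibodies gave a peak, the median log2 ratio of acH2A.Z to H2A.Z tags was 3.30 at 8 genes in siNTC cells (19.3%) and 5.38 at 9 genes under DMSO (11.5%), beside 2.90 and 5.39 in the background. EIF4E, EIF5A, NIP7, NMD3, NOLC1, PA2G4, TSR1 and WDR12 had one under DRB and none under DMSO (17.2% of background genes), and BRIX1, CAD and NOP16 the reverse (4.61%). BYSL, EIF4A1, EIF4E and EIF5A had one under ActD and none under DMSO (17.1%), and IMP4, NCL, NOP16, NOP2, NOP58 and NPM1 the reverse (6.79%).

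In the untreated RIP libraries, a peak over or within 1 kb was listed for 27 genes with the H2A.Z antibody, 27 with acH2A.Z and 31 with Tip60, against 70.8%, 83.9% and 86.8% of protein-coding genes. All 3 lists had a peak at 17 genes, a share of 42.5% against 61.1%. They were BOP1, BYSL, CAD, DDX21, EIF4E, GRWD1, LYAR, NMD3, NOP2, PA2G4, RCL1, RRP12, RRP9, TSR1, UTP20, WDR12 and WDR43. BRIX1, EIF5A, FBL, NME1, NME2, NOB1, PES1, PPAN and SRM had one with acH2A.Z and Tip60 (16.2%), and C1QBP, NOP16, NOP58 and NPM1 with H2A.Z and Tip60 (5.32%). IMP4 had one with acH2A.Z alone (4.32%) and MRTO4 with Tip60 alone (4.29%), and no gene had one with H2A.Z and acH2A.Z but not Tip60 (2.36%). LDHA and ODC1 had none in any list (4.44%). These genes span a median of 11.5 kb, beside 31.2 kb for the protein-coding genes at 1 CPM or more, and a shorter window has less room for a peak, whose part in the lower counts was not tested. The roles differed. All 10 small subunit factors had an acH2A.Z RIP peak, beside 83.9% of protein-coding genes, and of the 6 nucleolar core genes FBL alone did. Small subunit genes span 5071 (IMP4) to 106514 bases (UTP20), and nucleolar core genes 5762 (NOP56) to 37899 bases (NOP58). The part of gene span in the difference between roles was not tested. EIF4A1, GNL3, NCL, NIP7, NOLC1 and NOP56 had a peak with H2A.Z and with neither other antibody, 15% of the group against 2.05%. NOP56 had the most H2A.Z RIP tags of the 40 (59.6), PPAN the most acH2A.Z tags (82.0) and RCL1 the most Tip60 tags (113). Of the 36 genes with a listed start, 4 had an H2A.Z RIP peak within 1 kb of it, 14 an acH2A.Z peak and 12 a Tip60 peak, beside 12.1%, 39.7% and 34.3% of the 8868 protein-coding genes, so these counts are near the background.

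Input DNA, sequenced without immunoprecipitation, was shallow, with 440923 to 469547 expected counts a library. Summed over the DRB, ActD and DMSO input libraries and divided by effective length, MYC stood at 8.09 times the median gene (counting interval 7.23 to 9.02, 320 counts). The 40 genes had a median of 1.38. Of the 36 with 10 or more summed counts, 14 stood at 2 times the median gene or more and 6 at 0.5 times or less, against 16.4% and 14.3% of protein-coding genes with that minimum. EIF4A1 (5.41), NOP2 (5.31), BRIX1 (4.29), NPM1 (4.24) and NOP56 (3.01) were highest, and RRP9 had 0 counts, which allows up to 3. The members had a median of 33 summed counts. When each gene was set against genes of like length, 4 genes stood at 2 times or more. No background share is given for that measure, so whether this count differs from the background was not tested. NPM1 and EIF4A1 are known to have processed copies elsewhere in the genome, which can share reads with them. BRIX1 had the most acH2A.Z tags under ActD and DMSO and stood at 4.31 times by length class as well, and the part of copy number in its tags was not tested.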

How the data were processed

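Nascent, total and input tables hold expected counts and TPM, and the peak lists hold normalized tag counts (a signal), a score, a p-value and a fold enrichment, all deposited by the authors, per the file headers. Per the submitters' processing notes, GRCh38, Trim Galore, cutadapt, FastQC, STAR and HOMER were used. The quantifier and annotation are not given in the sources used here. Peaks were called per library, per the file headers, which name no control. In 10 lists the immunoprecipitation and in 3 lists the control was scaled. Tag values are taken to be per 10000000 tags, which the headers do not state.

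CPM was computed without mitochondrially encoded genes. Ratios are log2 of CPM + 1 over genes with a mean of 1 CPM and 20 counts in a pair of libraries, and called means 2-fold. Intervals are 95% exact counting intervals of the count ratio. No other error enters them, and PCR copies without molecular identifiers count as separate reads. A count of 0 allows up to 3. Peaks over or within 1 kb of a RefSeq gene (GRCh38.p14) were assigned to it, and tags summed. With 1 library a group no test was made. Computation used Python 3.11.15, numpy 2.4.6, pandas 2.3.3, scipy 1.17.1 and matplotlib 3.10.9, and the procedures were tested on simulated data. The 40 genes and all lists were chosen with earlier results of these data known. All 40 are named, and the 6 highest and 6 lowest in each RNA comparison (5 for ChIP) are given in detail. The 6 IgG libraries were not analysed here.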

Additional observations from a re-analysis of the deposited data

How the results depend on the processing

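No paired analysis was possible because the labels give no replicate numbers and each group held 1 library. Each single value therefore rests on 1 library, and nothing here separates treatment from library. Depth limits the lowest values most, among them PPAN under DRB and UTP20 under ActD. Counts of the 40 genes that moved by more than 1.5 times follow, and the cause was not tested. Centred on the median gene, higher and lower genes numbered 8 and 10 under DRB (0 and 18 as reported) and 9 and 9 under ActD (1 and 16). With TPM rescaled without mitochondrial genes, 1 gene was higher under DRB and 26 were lower under ActD, and EIF5A under ActD turned to -0.0737 on the log2 scale (1.13 as reported). With RNA polymerase III genes also left out, 1 gene was higher under DRB, and with mitochondrial genes in the total none was higher under ActD. For nascent against total RNA, none was higher with TPM (2 as reported), and 1 was lower when centred and 1 without polymerase III genes (3 as reported). For DMSO against untreated nascent RNA, 20, 20 and 18 genes were higher (32 as reported) and 3, 3 and 3 lower (0 as reported) with mitochondrial genes, when centred and without polymerase III genes.

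For acH2A.Z, genes with a peak in siMyc cells alone numbered 0 within 1 kb of the start, 2 at 8-fold over control and 2 with equal numbers of peaks (1 as reported). Peaks under DRB alone numbered 2 at 8-fold (1 as reported), and under DMSO and not DRB 6 at 8-fold, 12 with equal numbers and 1 by peak centre (0 as reported). Peaks under ActD alone numbered 2 at 8-fold (1 as reported), and under DMSO and not ActD 1 near the start, 6 at 8-fold and 10 with equal numbers (2 as reported). For H2A.Z, 0 genes in siMyc cells alone and 1 in siNTC cells alone were left at 8-fold (7 and 6 as reported), and with equal numbers 2 were left under DRB alone and 1 under ActD alone (8 and 4 as reported). RIP peaks were found near the start at 4, 14 and 12 genes for H2A.Z, acH2A.Z and Tip60, at 15 genes for H2A.Z at 8-fold, and at 15 and 20 genes for acH2A.Z and Tip60 with equal numbers (27, 27 and 31 as reported). By length class, input DNA stood at 2 times or more at 4 genes (14 as reported). Another 84 such counts stayed within 1.5 times. For the peak counts at 8-fold, with equal numbers and by peak centre, and for input by length class, no background share is given. Nor is one given for the RNA counts on other scales, except those centred on the median gene under DRB and ActD. Whether such counts differ from the background was not tested. The E-box count with the first listed window alone was chosen after seeing the data.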
